A study of Mus musculus with 15 samples.

Results

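Hypoxia response and glycolysis genes were followed by RNA sequencing in knockout mouse embryonic stem cells. The set held 40 genes chosen by symbol: 5 genes of the machinery of hypoxia-inducible factor (HIF), 16 HIF targets and 19 genes of glucose uptake and glycolysis. All 40 matched a row of the deposited count table of 37310 genes, 1 row each, and 39 were expressed enough to be tested in every comparison. The exception was Adm, which encodes the vasodilator peptide adrenomedullin and had at most 0.171 CPM (counts scaled to a fixed library total) in any library.

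The cells were of the J1 line, a mouse embryonic stem cell line, grown in medium with fetal calf serum and leukaemia inhibitory factor. A first experiment held Taf5l-KO cells, Taf6l-KO cells and J1 wild type grown for them (WT-Taf), and a second held cMyc-KO cells and J1 wild type grown for them (WT-Myc), with 3 libraries in each of the 5 groups. TAF5L and TAF6L are subunits of coactivator complexes with histone acetyltransferase activity, and MYC is a transcription factor that drives growth and metabolic genes. The labels name no oxygen treatment, guide or clone, and they do not say whether the 3 libraries of a group came from separate cultures; the p-values then rest on a spread between libraries that could be technical alone.

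HIF is a dimer of an oxygen-labile alpha subunit such as HIF1A and a stable beta subunit, ARNT. In oxygenated cells the prolyl hydroxylases encoded by Egln1 and Egln3 mark HIF1A for capture by the ubiquitin ligase subunit VHL, and it is degraded; in hypoxia it accumulates and binds hypoxia response elements, whose core is ACGTG or GCGTG. Its targets include most enzymes of glycolysis, several of which are also classical targets of MYC, whose preferred site is the E-box CACGTG. Pluripotent stem cells are known for a high rate of glycolysis even when oxygen is present.

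Promoters of the set are shown first because both factors read overlapping letters. RefSeq promoter windows (GRCm38.p6, from 250 bases before to 50 bases after a start) were at hand for 36 of the 40 genes, in 54 windows; Bnip3l, Ndrg1, Plod2 and Slc2a3 had none. The 250 bases before the start are printed for Ddit4 (chr10:59951771-59952020, minus strand) and P4ha1 (chr10:59323046-59323295, plus strand), HIF targets that fell by over 1 log2 unit in cMyc-KO, and for Bnip3 (chr7:138909507-138909756, minus strand) and Ldha (chr7:46845554-46845803, plus strand), which were higher in Taf6l-KO and lower in cMyc-KO. Capitals mark the HIF core ACGTG, its variant core GCGTG and the E-box CACGTG. Both strands were searched, so the reverse complement of either core, CACGT for the first core and CACGC for its variant, is in capitals too.
Ddit4: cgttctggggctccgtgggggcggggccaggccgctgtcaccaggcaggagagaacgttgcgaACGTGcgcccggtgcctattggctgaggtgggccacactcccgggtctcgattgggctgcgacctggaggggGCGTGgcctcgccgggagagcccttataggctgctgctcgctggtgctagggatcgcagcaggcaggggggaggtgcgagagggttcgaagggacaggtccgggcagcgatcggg
P4ha1: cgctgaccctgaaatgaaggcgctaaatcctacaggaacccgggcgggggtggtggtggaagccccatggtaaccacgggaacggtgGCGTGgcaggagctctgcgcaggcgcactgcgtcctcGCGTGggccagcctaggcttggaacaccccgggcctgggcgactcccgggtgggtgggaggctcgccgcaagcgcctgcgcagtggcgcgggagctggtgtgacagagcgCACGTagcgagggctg
Bnip3: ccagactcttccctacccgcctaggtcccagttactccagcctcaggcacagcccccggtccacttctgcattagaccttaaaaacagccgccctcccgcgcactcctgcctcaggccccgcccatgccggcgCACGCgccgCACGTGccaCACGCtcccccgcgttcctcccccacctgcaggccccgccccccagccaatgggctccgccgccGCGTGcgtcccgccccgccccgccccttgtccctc
Ldha: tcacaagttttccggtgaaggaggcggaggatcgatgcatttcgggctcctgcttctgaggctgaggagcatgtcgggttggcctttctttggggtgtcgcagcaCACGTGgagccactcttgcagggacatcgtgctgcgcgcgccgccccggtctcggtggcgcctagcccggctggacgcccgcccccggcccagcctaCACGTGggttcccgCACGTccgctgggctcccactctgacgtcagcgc
The stretch of Ldha holds 2 copies of CACGTG, and that of Bnip3 holds 1. Ldha has another window (chr7:46846832-46847131), not printed, which holds 2 copies of GCGTG and neither ACGTG nor CACGTG. Neither Ddit4 nor P4ha1 holds an E-box in these bases, whereas each holds both cores on 1 strand or the other. Stc2 and Vegfa, not printed, also fell by over 1 log2 unit in cMyc-KO. The Stc2 window holds 2 copies of GCGTG and no ACGTG. Of the Vegfa windows, 1 holds neither core and the other holds 1 copy of each. An E-box contains the core ACGTG on both strands and so also counts for that core.

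ACGTG occurred in 25 of the 54 windows of the set (46.3%) and in 19.6% of 32851 windows of genes at large. Windows on chromosome 18 were left out of that wider count. GCGTG occurred in 36 windows of the set (66.7%) and in 32.4% of the wider count, and CACGTG in 6 (11.1%) and in 7.15%. The windows of the set also had more G and C (median 63.8%, against 52.7% over those 32851 windows) and more CG dinucleotides (median 22, against 7). Counted by gene, GCGTG was present for 13 of the 13 HIF targets with a window and for 13 of the 18 glycolysis genes. ACGTG was present for 8 of these targets and for 11 of these glycolysis genes. Over the 27025 genes that the wider count of windows covers, the shares were 35.2% for GCGTG and 21.8% for ACGTG. The 6 genes with CACGTG were Hif1a, Bnip3, Ak4, Pfkm, Pfkfb3 and Ldha. These counts describe letters in a window and do not show binding.

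Libraries held 14935631 to 27650813 counts. Each targeted gene was lower in its own knockout, with RNA left: Taf5l at 41.8 to 43.0 CPM in Taf5l-KO, against 84.5 to 88.1 in WT-Taf; Taf6l at 6.06 to 7.17 CPM in Taf6l-KO, against 25.2 to 26.9 in WT-Taf; and Myc at 28.0 to 31.0 CPM in cMyc-KO, against 64.7 to 68.8 in WT-Myc. Myc itself was also lower in Taf5l-KO and Taf6l-KO than in WT-Taf (log2 fold changes -0.69 and -0.83). Taf6l was called lower in Taf5l-KO too (-0.347), and 2 of the 3 targeted genes were called lower in cMyc-KO. The 8 embryonic stem cell markers summed to 4240 to 4340 CPM in Taf5l-KO and 4210 to 4300 in Taf6l-KO, against 4780 to 4870 in WT-Taf, and to 6700 to 6930 CPM in cMyc-KO, against 6010 to 6190 in WT-Myc. Sums of 4 neuroectoderm markers were 51.1 to 53.8 CPM in Taf5l-KO and 62.6 to 64.7 in Taf6l-KO, against 82.4 to 85.7 in WT-Taf, and 72.0 to 82.8 CPM in cMyc-KO, against 111 to 118 in WT-Myc. The sums hide opposite moves in the Taf knockouts: of 3 markers tested, 1 rose and 1 fell in each. Their log2 fold changes ran from -0.801 to 0.915 in Taf5l-KO and from -0.503 to 0.883 in Taf6l-KO. In cMyc-KO all 3 fell. Sums of 5 trophectoderm markers were 31.1 to 34.9 CPM in cMyc-KO, against 18.3 to 20.2 in WT-Myc. They were 21.7 to 24.4 CPM in Taf5l-KO and 23.4 to 26.1 in Taf6l-KO, against 20.1 to 21.5 in WT-Taf. In Taf6l-KO 2 of these markers rose and 1 fell. These markers moved with the knockouts, and their part in the results was not tested. The 8 fibroblast markers summed to 7.84 to 13.2 CPM over all libraries, with Lum at 0 in every group, and 6 endoderm and 6 mesoderm markers to at most 8.75 CPM each. Replicate 3 of cMyc-KO stood apart from the other cMyc-KO libraries (chi-square per degree of freedom 36.4 and 26.3, against 5.07 between the other pair), so counts for that comparison are also given without it. Protein-coding genes took 77.3%, 80.7% and 79.7% of counts in Taf5l-KO, Taf6l-KO and WT-Taf, and 94.03% and 94.1% in cMyc-KO and WT-Myc; the experiments differ in this and in their wild types, and experiment and library preparation cannot be told apart.

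Levels of different genes were compared as CPM per kilobase of the longest annotated transcript. The genes of glucose uptake and glycolysis had a median of 84.5 CPM per kb in WT-Taf and 179.5 in WT-Myc, and the 16 HIF targets 4.97 in WT-Taf and 13.3 in WT-Myc. The roles overlapped: HIF targets began at rank 13 of 40 in WT-Taf (Pdk1) and 14 in WT-Myc (Ddit4), and Pfkfb4, a regulator of glycolysis, was at rank 39 in both. Aldoa, the main aldolase, led with 611 ± 4.88 CPM per kb in WT-Taf and 1198 ± 48.6 in WT-Myc (SD, n = 3 each), followed by Gapdh with 446 ± 14.7 in WT-Taf and 1112 ± 81.3 in WT-Myc. Pgam1, Eno1 and Ldha came next in both, in an order that differed between them. The order depends on the lengths taken. The longest transcript has 3289 bases for Gapdh and 1549 for Aldoa, and the mean length is 945.9 and 1036.8. Before division by length Gapdh was above Aldoa (1467 and 946.8 CPM in WT-Taf, 3657 and 1855 in WT-Myc). With the mean length Gapdh would lead in both. At the low end, the hydroxylase gene Egln3 had 1.5 ± 0.176 CPM per kb in WT-Taf and 3.91 ± 0.437 in WT-Myc, and Stc2 had 1.40 ± 0.192 in WT-Taf and 3.52 ± 0.179 in WT-Myc; these neighbours in the order do not differ beyond their spread.

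In the knockout of Myc the set moved mostly downward. Of the 39 tested genes 19 fell and 3 rose in cMyc-KO against WT-Myc, a share of 48.7% lower and 7.69% higher; over all 14563 genes tested 19.5% were lower and 15.2% were higher. The median log2 fold change of the set was -0.21, against -0.00185 over all genes. By role, 2 of 5 machinery genes, 9 of 15 HIF targets and 8 of 19 glycolysis genes fell, and 1 of each rose (Arnt, Kdm3a and Ldhb). Without replicate 3 of cMyc-KO, 18 fell and 3 rose. The set is more abundant than the genes at large (median 93.1 CPM, against 17.8 CPM over all genes tested in these 6 libraries), and the part of that in the share called was not tested. In bulk RNA, fewer cells with a transcript and less transcript per cell cannot be told apart.

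**Figure D1:**
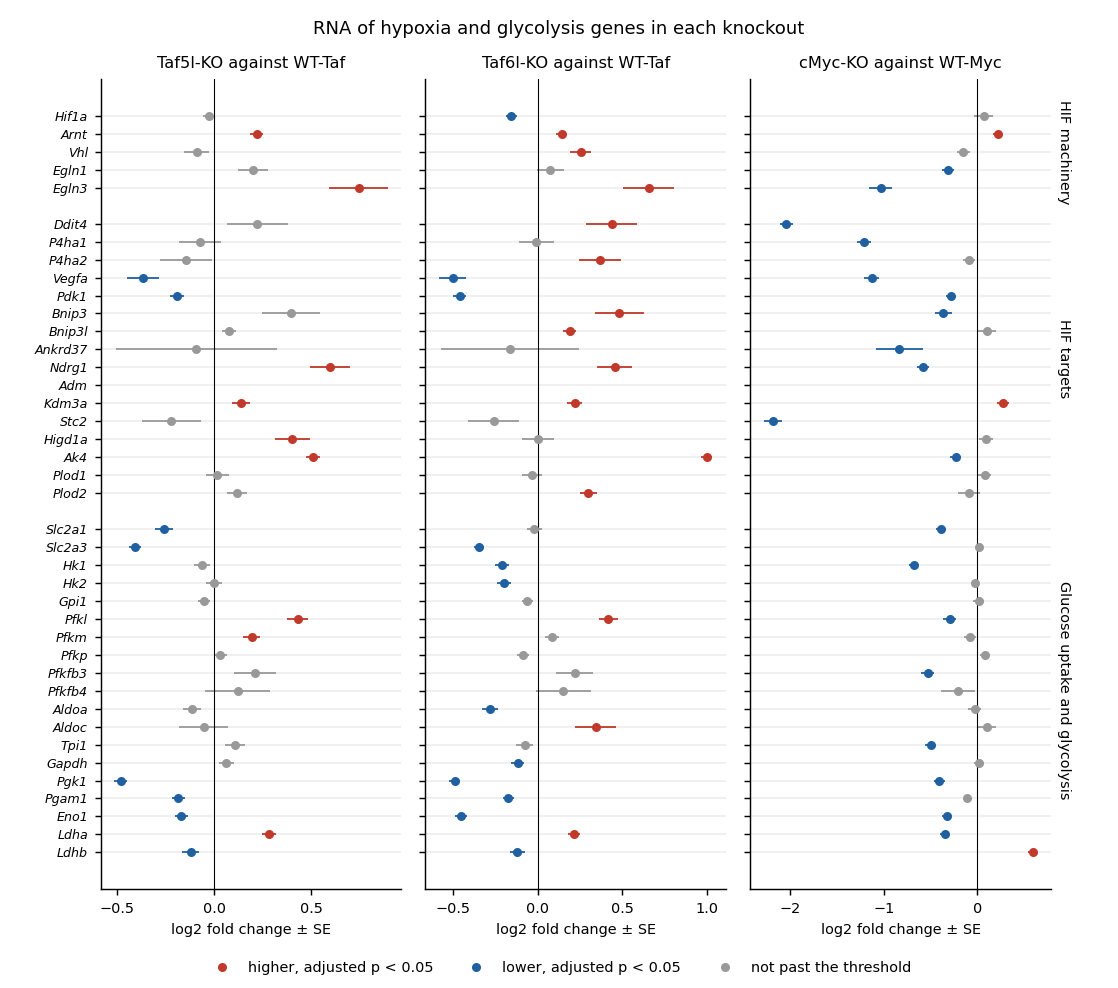
log2 fold change with its standard error for each gene in Taf5l-KO and Taf6l-KO against WT-Taf and cMyc-KO against WT-Myc, by role; horizontal scales differ between panels, and Adm was not tested. HIF targets reach -2.18 in cMyc-KO, while the lowest value in a Taf knockout is -0.50 (Vegfa in Taf6l-KO).

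The sensor and effector genes of HIF did not move as a block. Hif1a itself had 140, 144 and 175 CPM in cMyc-KO, against 157, 150 and 131 in WT-Myc, overlapping ranges that did not pass the test (log2 fold change 0.07 ± 0.10 SE, adjusted p = 0.65). Arnt was higher (152, 158 and 162 CPM in cMyc-KO, against 138, 138 and 132 in WT-Myc; 0.21 ± 0.05). Vhl lay at 18.2 to 20.4 CPM in cMyc-KO and 20.9 to 21.9 in WT-Myc and did not pass.
The hydroxylase genes Egln1 and Egln3, which are themselves HIF targets, were both lower. Egln3 had 5.41, 5.41 and 4.53 CPM in cMyc-KO, against 9.14, 11.4 and 10.7 in WT-Myc (log2 fold change -1.03 ± 0.12, adjusted p = 0.000633 by edgeR's quasi-likelihood test with Benjamini-Hochberg adjustment, as throughout). All 3 cMyc-KO libraries lay below all 3 WT-Myc libraries. Egln1 fell less (20.4 to 21.0 CPM in cMyc-KO, against 24.3 to 26.9 in WT-Myc; -0.31 ± 0.06, adjusted p = 0.00735).

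Among HIF targets, Stc2 and Ddit4 fell most. Stc2, which encodes the secreted glycoprotein stanniocalcin 2, had 3.23, 2.86 and 3.14 CPM in cMyc-KO, against 14.1, 13.3 and 14.7 in WT-Myc (log2 fold change -2.18 ± 0.10, adjusted p = 1.2e-05). Ddit4, an inhibitor of the growth kinase mTORC1, had 15.2, 14.2 and 13.2 CPM in cMyc-KO, against 57.6, 56.9 and 61.0 in WT-Myc (-2.04 ± 0.07, adjusted p = 5.28e-06). For both genes every cMyc-KO library lay far below every WT-Myc library.
P4ha1 encodes the catalytic subunit of collagen prolyl 4-hydroxylase. It had 18.1, 22.0 and 19.6 CPM in cMyc-KO, against 46.3, 45.9 and 45.5 in WT-Myc (log2 fold change -1.21 ± 0.08, adjusted p = 3.52e-05). Its sister subunit P4ha2 did not pass the test (15.4, 15.4 and 14.8 CPM in cMyc-KO, against 16.5, 15.8 and 16.1 in WT-Myc; -0.09 ± 0.07). P4ha1 thus made up 49.7 ± 2.42% of the CPM per kb of the pair in cMyc-KO and 68.3 ± 0.373% in WT-Myc, with no overlap between libraries. Such shares depend on the lengths taken: with the mean in place of the longest transcript length the share was 33.0 ± 2.13% in cMyc-KO and 51.7 ± 0.431% in WT-Myc.

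Vegfa, the vascular growth factor, had 7.39, 7.61 and 7.96 CPM in cMyc-KO, against 16.9, 17.4 and 15.99 in WT-Myc (log2 fold change -1.13 ± 0.08, adjusted p = 5.55e-05). Ndrg1, a stress-responsive gene named for its repression by N-Myc, had 17.4, 17.0 and 18.5 CPM in cMyc-KO, against 26.3, 27.1 and 25.9 in WT-Myc (-0.58 ± 0.06, adjusted p = 0.000423). In both genes every cMyc-KO library was below every WT-Myc library. Ankrd37, an ankyrin-repeat gene, was near the limit of detection, with 0.970, 0.748 and 0.803 CPM in cMyc-KO, against 1.83, 1.11 and 1.60 in WT-Myc (-0.83 ± 0.25, adjusted p = 0.0334). Its groups did not overlap, but the call was lost without cMyc-KO replicate 2 or 3 or WT-Myc replicate 1 or 3 (adjusted p 0.102, 0.0682, 0.111 and 0.105) and with DESeq2 (adjusted p = 0.137).
Smaller falls were found for Pdk1, the kinase that inhibits pyruvate dehydrogenase (-0.29 ± 0.05), for the mitophagy receptor gene Bnip3 (-0.36 ± 0.09) and for the mitochondrial adenylate kinase gene Ak4 (-0.23 ± 0.06). The calls of Bnip3 and Ak4 were lost when single libraries were left out: Bnip3 without cMyc-KO replicate 2 or WT-Myc replicate 1 (adjusted p 0.0527 and 0.0629), and Ak4 without cMyc-KO replicate 2 or WT-Myc replicate 1 or 2 (0.063, 0.0546 and 0.0648). Kdm3a, a histone H3 lysine 9 demethylase and HIF target, was higher (176, 177 and 195 CPM in cMyc-KO, against 158, 151 and 144 in WT-Myc; 0.27 ± 0.06). Bnip3l, P4ha2, Higd1a, Plod1 and Plod2 did not pass, with log2 fold changes from -0.09 to 0.10. Summed over the 16 targets, levels were 733, 733 and 799 CPM in cMyc-KO, against 899, 877 and 848 in WT-Myc.

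**Figure D2:**
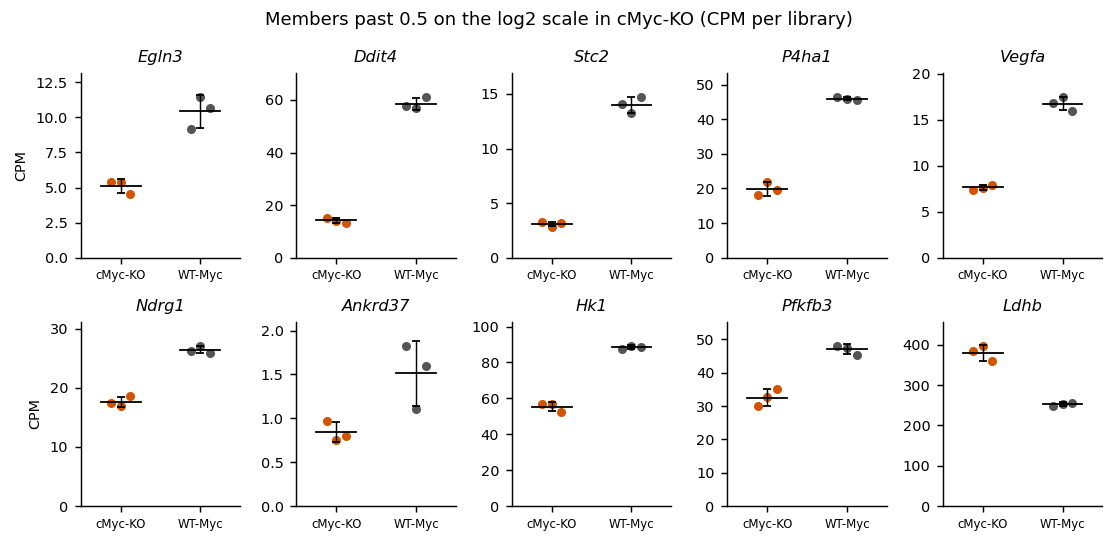
CPM of the genes whose call exceeded 0.5 on the log2 scale in cMyc-KO; points are libraries, bars are means with SD (n = 3), cMyc-KO on the left and WT-Myc on the right of each panel. The groups are separate in all 10 panels, which adds no support because the genes were picked by their calls in these libraries. Ldhb is the one gene higher in cMyc-KO.

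Glycolysis genes moved less than HIF targets and not all in the same direction. At the entry, Slc2a1, the basal glucose transporter, was lower (403, 412 and 382 CPM in cMyc-KO, against 500, 523 and 546 in WT-Myc; log2 fold change -0.39 ± 0.05), whereas Slc2a3, the high-affinity transporter, did not pass (1191 to 1246 CPM in cMyc-KO, against 1187 to 1213 in WT-Myc; 0.02 ± 0.04). Hexokinase 1 was lower: Hk1 had 56.9, 56.8 and 52.6 CPM in cMyc-KO, against 87.4, 89.4 and 88.8 in WT-Myc (-0.68 ± 0.05, adjusted p = 9.86e-05). Hk2, the inducible hexokinase, did not pass (-0.03 ± 0.04). Hk1 therefore held 23.5 ± 0.863% of hexokinase CPM per kb in cMyc-KO and 32.5 ± 0.457% in WT-Myc.

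Pfkfb3, which makes the activator of phosphofructokinase, had 29.9, 32.7 and 35.1 CPM in cMyc-KO, against 48.2, 47.6 and 45.4 in WT-Myc (log2 fold change -0.53 ± 0.07, adjusted p = 0.00098), with no overlap. The liver-type phosphofructokinase gene Pfkl was lower (-0.30 ± 0.07), and the muscle and platelet types Pfkm and Pfkp did not pass, nor did Pfkfb4 (1.90 to 2.85 CPM in cMyc-KO, against 2.59 to 2.74 in WT-Myc) or Aldoc (13.9 to 17.4 CPM in cMyc-KO, against 14.4 to 15.6 in WT-Myc). Further along the pathway Tpi1 (triosephosphate isomerase; 349 to 397 CPM in cMyc-KO, against 523 to 557 in WT-Myc; -0.499 ± 0.06), Pgk1 (phosphoglycerate kinase; -0.41 ± 0.06) and Eno1 (enolase; -0.32 ± 0.05) fell. Gpi1, Aldoa, Gapdh and Pgam1, at intermediate steps, did not pass, with log2 fold changes from -0.11 to 0.02.

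The lactate dehydrogenase genes moved in opposite directions. Ldha, which favours lactate formation, had 1244, 1235 and 1149 CPM in cMyc-KO, against 1517, 1516 and 1595 in WT-Myc (log2 fold change -0.35 ± 0.05, adjusted p = 0.00114). Ldhb, which favours the return of lactate to pyruvate, had 384, 398 and 359 CPM in cMyc-KO, against 248, 254 and 256 in WT-Myc (0.59 ± 0.05, adjusted p = 0.000132). Neither gene's groups overlapped. Ldhb held 30.0, 31.0 and 30.3% of their CPM per kb in cMyc-KO, against 18.6, 18.9 and 18.3% in WT-Myc. Summed over 15 glycolytic enzymes, levels were 11730, 11900 and 11240 CPM in cMyc-KO, against 12300, 12390 and 13160 in WT-Myc.

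In the Taf knockouts the set moved in both directions, with log2 fold changes from -0.48 to 0.74 in Taf5l-KO and from -0.50 to 0.998 in Taf6l-KO, against -2.18 to 0.59 in cMyc-KO. Taf5l-KO had 9 genes higher and 8 lower of 39 (23.1% and 20.5%) against WT-Taf, where 17.4% of all 15743 genes tested were higher and 15.9% lower. Taf6l-KO had 14 higher and 12 lower (35.9% and 30.8%), where 19.1% of all genes were higher and 18.2% lower. The medians of the set were 0.02 in Taf5l-KO and -0.01 in Taf6l-KO, against 0.000539 and 0.02 over all genes. The set's median level was 91.9 CPM, against 13.6 CPM over all genes tested in these 9 libraries. Both comparisons use the same 3 WT-Taf libraries, so they are not independent and are given side by side. When libraries were scaled by their totals, the share of higher among all genes called in Taf6l-KO was 69.0% in place of 51.2%, and the median of all genes was 0.09; the direction of no called gene of the set changed.

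Counted by role, of 15 targets 4 rose and 2 fell in Taf5l-KO, and 8 rose and 2 fell in Taf6l-KO; of 19 glycolysis genes 3 rose and 6 fell in Taf5l-KO, and 3 rose and 9 fell in Taf6l-KO. As shares, the targets were 26.7% higher and 13.3% lower in Taf5l-KO, near the 17.4% and 15.9% of all genes, and 53.3% higher and 13.3% lower in Taf6l-KO, where all genes had 19.1% and 18.2%. Glycolysis genes were 15.8% higher and 31.6% lower in Taf5l-KO and 15.8% higher and 47.4% lower in Taf6l-KO. The 8 targets higher in Taf6l-KO became 5 when replicate 1 of Taf6l-KO or replicate 2 of WT-Taf was left out. Summed over 16 targets, levels were 601, 575 and 588 CPM in Taf5l-KO and 610, 615 and 612 CPM in Taf6l-KO, against 562, 548 and 569 CPM in WT-Taf. Summed over 15 glycolytic enzymes, they were 6200, 5906 and 5754 CPM in Taf5l-KO and 5416, 5547 and 5412 CPM in Taf6l-KO, against 6082, 6084 and 6132 CPM in WT-Taf. The target sums were above all wild-type libraries in both knockouts, but not without Ak4, when the sums were 499, 478 and 490 CPM in Taf5l-KO and 473, 477 and 470 CPM in Taf6l-KO, against 491, 479 and 499.8 CPM in WT-Taf. The enzyme sums were below all wild-type libraries in Taf6l-KO and overlapped them in Taf5l-KO.

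Hif1a had 139, 144 and 142 CPM in Taf6l-KO, against 155, 161 and 157 in WT-Taf (log2 fold change -0.16 ± 0.03, adjusted p = 0.00144), and 151, 157 and 156 CPM in Taf5l-KO (-0.03 ± 0.03, not called). The Taf6l-KO call was lost when libraries were scaled by their totals (adjusted p = 0.077). Arnt rose in both (0.22 ± 0.03 in Taf5l-KO and 0.14 ± 0.03 in Taf6l-KO), and Vhl rose in Taf6l-KO (0.25 ± 0.06).
Egln3 had 7.72, 5.51 and 6.78 CPM in Taf5l-KO and 6.17, 7.12 and 5.51 CPM in Taf6l-KO, against 4.10, 3.48 and 4.40 CPM in WT-Taf. Every knockout library was above every wild-type library (0.74 ± 0.15, adjusted p = 0.0016 in Taf5l-KO; 0.65 ± 0.15, adjusted p = 0.00331 in Taf6l-KO). Egln1 passed in neither (0.20 ± 0.08 and 0.07 ± 0.08).

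Ak4 showed the largest rise of the set in Taf6l-KO. It had 102, 97.7 and 97.8 CPM in Taf5l-KO and 137, 139 and 142 CPM in Taf6l-KO, against 70.8, 68.5 and 69.7 CPM in WT-Taf. The 3 groups were separate, with log2 fold changes of 0.51 ± 0.03 (adjusted p = 8.62e-08) in Taf5l-KO and 1.00 ± 0.03 (adjusted p = 1.07e-10) in Taf6l-KO. Taken directly, Taf6l-KO was above Taf5l-KO by 0.49 ± 0.03 (adjusted p = 6.81e-07).
Ndrg1 had 14.7, 11.9 and 11.7 CPM in Taf5l-KO and 10.9, 11.9 and 11.8 CPM in Taf6l-KO, against 8.84, 7.61 and 8.87 CPM in WT-Taf (0.60 ± 0.10, adjusted p = 0.00046 and 0.46 ± 0.10, adjusted p = 0.00304). The knockout ranges overlapped each other and lay above wild type. Vegfa went the other way, with 14.7, 12.8 and 11.7 CPM in Taf5l-KO and 11.6, 11.5 and 12.4 CPM in Taf6l-KO, against 17.1, 17.0 and 16.2 CPM in WT-Taf. It fell in both (-0.37 ± 0.08, adjusted p = 0.00303 and -0.50 ± 0.08, adjusted p = 0.00022). The rise of Ndrg1 was not called by limma on log2 FPKM or on the authors' normalized counts (adjusted p 0.108 to 0.186 in Taf5l-KO and 0.508 to 0.585 in Taf6l-KO).

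Pdk1 fell by 0.19 ± 0.04 in Taf5l-KO and by 0.46 ± 0.04 in Taf6l-KO. Kdm3a rose in both (0.14 ± 0.05 and 0.22 ± 0.04), although in Taf5l-KO its groups overlapped and the call was lost without Taf5l-KO replicate 1, WT-Taf replicate 1 or WT-Taf replicate 2 (adjusted p 0.093, 0.146 and 0.12). Higd1a, a mitochondrial HIF target, rose in Taf5l-KO (0.40 ± 0.09) and did not pass in Taf6l-KO (11.2 to 14.8 CPM in Taf6l-KO, against 12.7 to 12.9 in WT-Taf). Ddit4 rose in Taf6l-KO by 0.44 ± 0.15 (8.79, 6.73 and 7.62 CPM in Taf6l-KO, against 6.15, 4.62 and 6.57 in WT-Taf; adjusted p = 0.0337), as did Bnip3 by 0.48 ± 0.15 and P4ha2 by 0.37 ± 0.13.
These last calls depended on single libraries. Ddit4 was lost without replicate 1 or 3 of Taf6l-KO or replicate 1 or 2 of WT-Taf (adjusted p 0.144, 0.0627, 0.0509 and 0.174), Bnip3 without replicate 1 of Taf6l-KO or 2 of WT-Taf (0.0642 and 0.064), and P4ha2 without any 1 of the 3 Taf6l-KO libraries or replicate 2 of WT-Taf (0.0624 to 0.179). P4ha2, Stc2 and Aldoc lie on chromosome 11, where 39.1% of genes were higher and 6.46% lower in Taf6l-KO; the part of this in their values was not tested. The collagen lysyl hydroxylase gene Plod2 rose in Taf6l-KO (0.30 ± 0.05), as did Bnip3l (0.19 ± 0.04), whose value was 0.07 and did not pass in limma on log2 FPKM or normalized counts (adjusted p 0.251 to 0.268). In the same fits the values of Ddit4 and Bnip3 did not pass either (adjusted p 0.112 to 0.187 and 0.113 to 0.194). P4ha1, Stc2, Ankrd37 and Plod1 passed in neither Taf knockout.

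**Figure D3:**
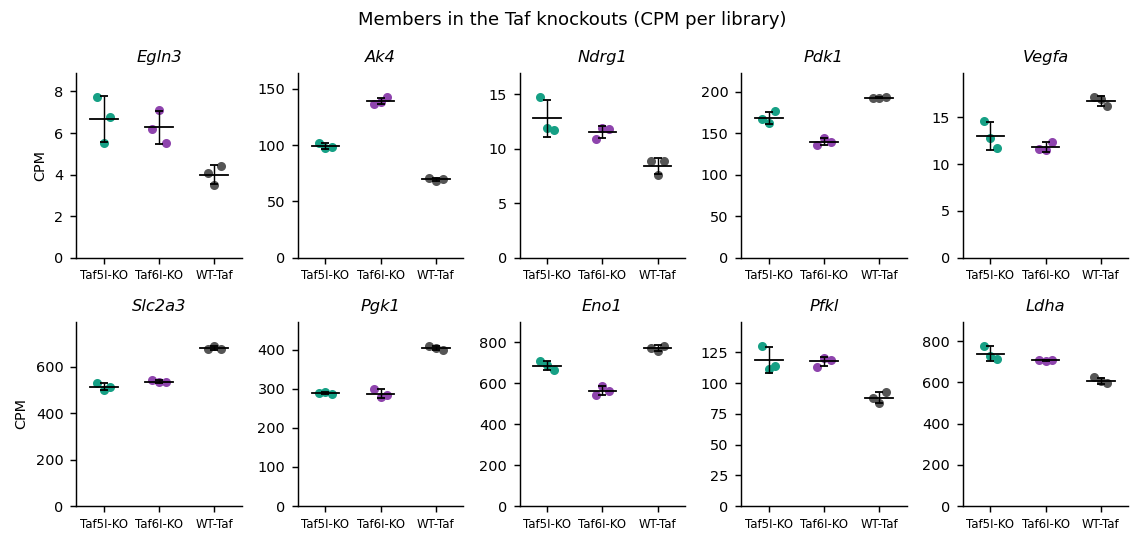
CPM of 10 genes in Taf5l-KO, Taf6l-KO and WT-Taf, left to right in each panel; points are libraries, bars are means with SD (n = 3). Egln3, Ak4, Ndrg1, Pfkl and Ldha lie above wild type in both knockouts, and Pdk1, Vegfa, Slc2a3, Pgk1 and Eno1 lie below it. All 10 were called in the same direction in both knockouts in these libraries, so their separation adds no support. Genes called in 1 Taf knockout only, such as Slc2a1, Higd1a, Hk1 and Hk2, are not shown.

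In glycolysis Pgk1 had the largest fall in each Taf knockout, followed by Slc2a3 in Taf5l-KO and by Eno1 in Taf6l-KO. Pgk1 had 289, 293 and 287 CPM in Taf5l-KO and 300, 279 and 284 CPM in Taf6l-KO, against 410, 403 and 400 CPM in WT-Taf. Both knockouts were below every wild-type library (-0.48 ± 0.03, adjusted p = 7.59e-08 and -0.49 ± 0.03, adjusted p = 4.3e-08). Pgk1 lies on the X chromosome, where 31.4% of genes were lower in Taf5l-KO and 34.2% in Taf6l-KO; whether that accounts for the value was not tested.
Slc2a3 had 532, 500 and 513 CPM in Taf5l-KO and 543, 534 and 533 CPM in Taf6l-KO, against 678, 692 and 678 CPM in WT-Taf (-0.41 ± 0.03 and -0.35 ± 0.03). Slc2a1 was lower in Taf5l-KO (-0.26 ± 0.05) but not in Taf6l-KO (-0.02 ± 0.05), and the direct contrast of Taf6l-KO and Taf5l-KO passed (0.24 ± 0.05, adjusted p = 0.00231). Eno1 and Pgam1 fell in both, Eno1 by 0.17 ± 0.04 in Taf5l-KO and by 0.45 ± 0.04 in Taf6l-KO, and Pgam1 by 0.18 ± 0.03 in each.
Hk1, Hk2, Aldoa and Gapdh passed the test as lower in Taf6l-KO and not in Taf5l-KO (-0.21, -0.20, -0.28 and -0.12). The calls of Hk1 and Hk2 were lost in limma on log2 FPKM and on normalized counts (Hk1 -0.13, adjusted p 0.462 to 0.554; Hk2 -0.14, adjusted p 0.228 to 0.345). The Gapdh call was lost under scaling by library totals (-0.05) and without Taf6l-KO replicate 3, WT-Taf replicate 2 or WT-Taf replicate 3 (adjusted p 0.0885, 0.0867 and 0.0794). Aldoc, the brain-type aldolase, rose in Taf6l-KO (0.34 ± 0.12), a call lost when replicate 2 of Taf6l-KO or replicate 1 or 2 of WT-Taf was left out (adjusted p 0.141, 0.0698 and 0.163). Gpi1, Pfkp, Pfkfb3, Pfkfb4 and Tpi1 passed in neither knockout.

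Pfkl and Ldha were the glycolysis genes higher in both Taf knockouts. Pfkl had 130, 112 and 114 CPM in Taf5l-KO and 113, 120 and 119 CPM in Taf6l-KO, against 87.8, 83.9 and 92.7 CPM in WT-Taf (0.43 ± 0.05 and 0.42 ± 0.05). Ldha had 779, 729 and 712 CPM in Taf5l-KO and 709, 706 and 707 CPM in Taf6l-KO, against 625, 607 and 596 CPM in WT-Taf (0.28 ± 0.04 and 0.22 ± 0.04). For both genes all knockout libraries exceeded all wild-type ones. Pfkm rose in Taf5l-KO alone by the test (0.19 ± 0.04), but its FPKM and the authors' normalized counts gave the opposite sign without passing (-0.23 to -0.24).
Ldhb was called slightly lower in both (-0.12 ± 0.04 each, adjusted p = 0.044 and 0.0406), on calls that were lost without single libraries: 7 of 9 in Taf5l-KO, among them WT-Taf replicate 1 (-0.07), and 5 of 9 in Taf6l-KO, among them the same library (-0.07). As shares of CPM per kb, Ldhb held 19.1 ± 1.10% of lactate dehydrogenase in Taf5l-KO and 19.8 ± 0.412% in Taf6l-KO, against 23.8 ± 0.903% in WT-Taf. Pfkl held 51.2 ± 2.03% of phosphofructokinase in Taf5l-KO and 53.0 ± 0.513% in Taf6l-KO, against 45.7 ± 1.12% in WT-Taf. Counts of Gapdh, Eno1, Ldha, Pgk1, Tpi1, Pgam1 and Aldoa are uncertain in that these genes have near-identical pseudogene copies, among which the authors' counting could split reads.

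**Figure D4:**
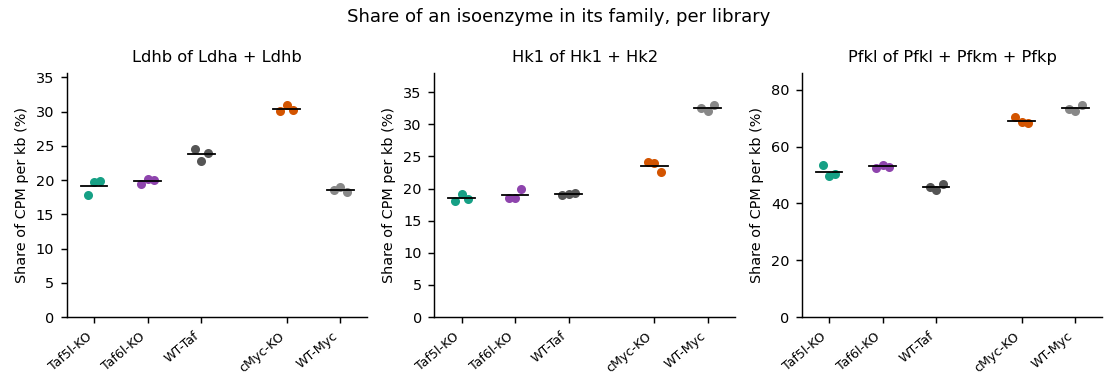
Share of Ldhb, Hk1 and Pfkl in the CPM per kb of their families, per library (points) with the group mean (bar). The Ldhb share is highest in cMyc-KO (30.4%), above 18.6% in WT-Myc, whereas both Taf knockouts (19.1% and 19.8%) lie below WT-Taf (23.8%).

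Set directly against each other, Taf6l-KO had 6 genes of the set higher and 10 lower than Taf5l-KO (15.4% and 25.6%), where 8.55% of all genes were higher and 10.1% lower. Under scaling by library totals, 83.1% of all genes called were higher, in place of 45.8%, and the balance of the set turned to 9 higher and 3 lower, with Bnip3l, Kdm3a and Slc2a3 added to the higher ones. In all, 11 of the 16 calls were lost under some other setting. Higher in Taf6l-KO were Vhl, P4ha2, Ak4, Plod2, Slc2a1 and Aldoc, and lower were Hif1a, Pdk1, Higd1a, Hk1, Hk2, Pfkp, Aldoa, Tpi1, Gapdh and Eno1. P4ha2 and Aldoc lie on chromosome 11, and the part of that in this contrast was not tested. P4ha2 differed by 0.52 ± 0.13 (6.85, 6.68 and 6.71 CPM in Taf6l-KO, against 5.11, 4.18 and 4.91 in Taf5l-KO; adjusted p = 0.0106), a call lost without Taf5l-KO replicate 2 (adjusted p = 0.0542) and with DESeq2 (0.0536), and its value was 0.15 in limma on log2 FPKM and on normalized counts (adjusted p 0.576 to 0.586). Without Taf5l-KO replicate 1, or without Taf6l-KO replicate 1, 6 genes in place of 10 were lower.

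Whether the effect of Myc loss differed from the mean effect of the Taf knockouts was tested in all 15 libraries, as the effect in cMyc-KO minus the mean of the effects in Taf5l-KO and Taf6l-KO. It differed for 17 genes of the set, 15 of them with a more negative effect in cMyc-KO (38.5%) and 2 with a more positive one (5.13%); over all 16286 genes tested, 16.9% were more negative and 18.4% more positive. The 7 HIF targets among the 15 were Ddit4, P4ha1, Vegfa, Bnip3, Ndrg1, Stc2 and Ak4, from -0.65 ± 0.10 (Vegfa) to -2.33 ± 0.16 (Ddit4). Egln3 differed by -1.69 ± 0.20 (adjusted p = 6.21e-06). In 5 genes, Egln3, Ndrg1, Ak4, Pfkl and Ldha, the call was higher in both Taf knockouts and lower in cMyc-KO. The difference passed for each, but these genes were picked by calls from the same libraries, so this adds no support. The Egln3 call in Taf6l-KO was lost in limma on log2 FPKM (adjusted p 0.0519 and 0.0607), and the Ndrg1 calls in both Taf knockouts were lost there too.

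Ldhb ran the other way, with a difference of 0.75 ± 0.07 (adjusted p = 5.66e-07), and Slc2a3 differed by 0.44 ± 0.05 (adjusted p = 5.37e-06). Without cMyc-KO replicate 3, 6 genes in place of 2 had a more positive effect, with Gpi1, Pfkp, Aldoa and Pgam1 added (differences 0.17, 0.18, 0.29 and 0.11). Vegfa was lower in all 3 knockouts and fell more in cMyc-KO, a difference that passed (-0.65 ± 0.10, adjusted p = 0.000132). For Pdk1, Pgk1 and Eno1, also lower in all 3 knockouts, and for Arnt and Kdm3a, higher in all 3, no difference passed (from 0.03 ± 0.07 for Eno1 to 0.14 ± 0.07 for Kdm3a). A p that misses the threshold does not show that these effects are equal.

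**Figure D5:**
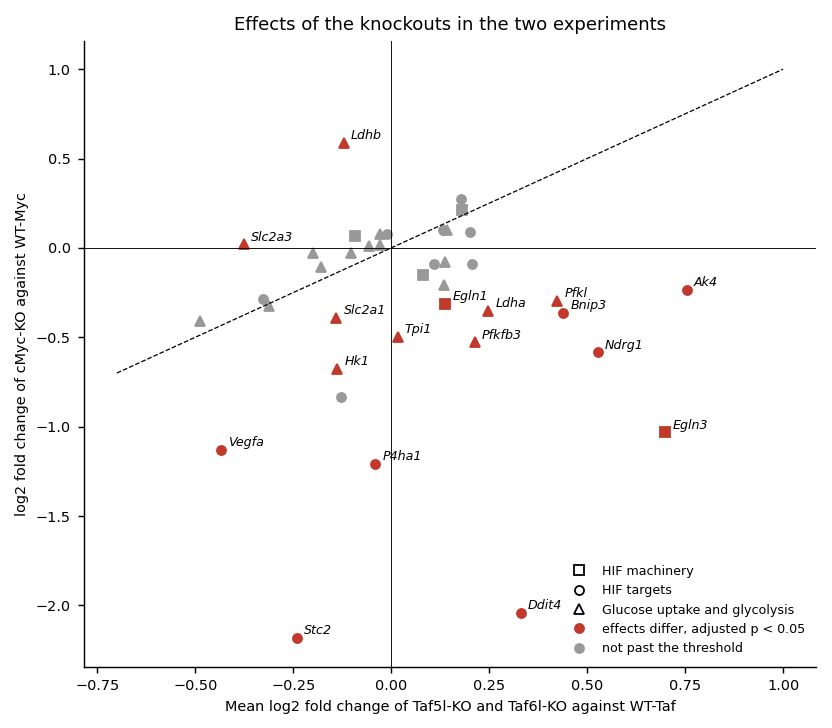
log2 fold change in cMyc-KO against WT-Myc (vertical) plotted against the mean of the log2 fold changes in Taf5l-KO and Taf6l-KO against WT-Taf (horizontal) for 39 genes; red marks the 17 whose effects differ by the test in all libraries, and the dashed line marks equal effects. Most red genes lie below the line, and Ldhb and Slc2a3 lie above it.

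The wild types themselves differed in level for some of the genes that fell in cMyc-KO and not for others. Ddit4 had 57.6, 56.9 and 61.0 CPM in WT-Myc and 6.15, 4.62 and 6.57 CPM in WT-Taf, and P4ha1 had 46.3, 45.9 and 45.5 CPM in WT-Myc and 10.5, 8.70 and 8.26 CPM in WT-Taf. In cMyc-KO, Ddit4 and P4ha1 (13.2 to 15.2 and 18.1 to 22.0 CPM) were still above every library of the Taf experiment. Vegfa averaged 16.8 CPM in both. Experiment, culture and library make-up cannot be told apart in these gaps, and no test was made of it.

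Genes of the same pathways outside the set, on lists chosen with earlier results known, moved in both directions in the Taf knockouts. Their counts stand against shares over all genes of 17.4% higher and 15.9% lower in Taf5l-KO, 19.1% and 18.2% in Taf6l-KO, and 15.2% and 19.5% in cMyc-KO. Of 12 further genes of the HIF machinery, 1 rose and 4 fell in Taf5l-KO, 1 rose and 4 fell in Taf6l-KO, and none rose and 3 fell in cMyc-KO. In Taf5l-KO 2 fell when WT-Taf replicate 2 was left out; in cMyc-KO 1 rose without replicate 1 of either group and 2 rose without cMyc-KO replicate 3. Epas1, which encodes HIF2A, fell in all 3 knockouts: 59.9 to 61.6 CPM in Taf5l-KO and 56.5 to 58.9 in Taf6l-KO, against 92.6 to 93.8 in WT-Taf (-0.63 ± 0.03 and -0.70 ± 0.03), and 34.7 to 36.6 CPM in cMyc-KO, against 65.7 to 70.0 in WT-Myc (-0.93 ± 0.05). Cited2, which competes with HIF for the coactivator p300, fell in both Taf knockouts (-0.59 ± 0.04 and -0.996 ± 0.04), whereas Hif3a, an inhibitory alpha subunit in some forms, rose in both (0.69 ± 0.11 and 0.42 ± 0.11). Crebbp, the coactivator CBP, fell in cMyc-KO (-0.59 ± 0.08).

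Of 29 further HIF targets 25 were tested in the Taf knockouts and 26 in cMyc-KO; 7 rose and 4 fell in Taf5l-KO, 8 rose and 5 fell in Taf6l-KO, and 4 rose and 8 fell in cMyc-KO. The counts rested on single libraries: 4 rose in Taf5l-KO without Taf5l-KO replicate 1 or replicate 1 or 3 of WT-Taf, and 2 fell without the first of these. In Taf6l-KO 5 rose without Taf6l-KO replicate 1 or WT-Taf replicate 3, 3 rose without WT-Taf replicate 1, and 3 fell without WT-Taf replicate 2. In cMyc-KO 2 rose without replicate 1 or 3 of WT-Myc. Under other settings the number that rose ranged from 3 to 7 in Taf5l-KO, from 3 to 10 in Taf6l-KO and from 1 to 5 in cMyc-KO. Slc16a3, a lactate exporter, rose in both Taf knockouts (0.72 ± 0.17 and 0.66 ± 0.17). Slc16a3 lies on chromosome 11, where 39.1% of genes were higher in Taf6l-KO, and the part of this in its value was not tested. In Taf5l-KO its replicate 1 stood highest (31.4, 18.1 and 18.8 CPM, against 14.8, 12.8 and 13.7 in WT-Taf). Among those that fell in Taf5l-KO were Tfrc (-0.37 ± 0.04), Jmjd6 (-0.18 ± 0.04) and Wsb1 (-0.15 ± 0.05). In cMyc-KO the haem oxygenase gene Hmox1 (-0.77 ± 0.06), Igfbp3 (-1.18 ± 0.12) and Fam162a (-0.71 ± 0.07) fell and Loxl2, a lysyl oxidase, rose (0.80 ± 0.06). Fam162a, a mitochondrial protein gene, was higher in both Taf knockouts (0.29 ± 0.04 and 0.17 ± 0.04).

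Of 22 further genes of glucose metabolism, 16 were tested in the Taf knockouts and 15 in cMyc-KO; 3 rose and 3 fell in Taf5l-KO, 4 rose and 4 fell in Taf6l-KO, and 1 rose and 2 fell in cMyc-KO. There, 1 fell without replicate 2 or 3 of cMyc-KO or 1 or 2 of WT-Myc, and 2 rose without WT-Myc replicate 1. Eno3, the muscle enolase, rose in all 3 (0.75 ± 0.06, 0.54 ± 0.06 and 0.50 ± 0.10), while Galm, which interconverts anomers of hexose sugars, fell in all 3 (-0.81 ± 0.08, -0.74 ± 0.08 and -0.88 ± 0.08). Eno3 also lies on chromosome 11, and the part of that in its Taf6l-KO value was not tested. Ldhc, the testis lactate dehydrogenase, was low but rose in the Taf knockouts, with 1.10 to 1.25 CPM in Taf5l-KO and 1.60 to 2.21 CPM in Taf6l-KO, against 0.406 to 0.485 CPM in WT-Taf (1.35 ± 0.28 and 2.05 ± 0.26). Pfkfb2 rose in both Taf knockouts (0.58 ± 0.07 and 0.57 ± 0.07).

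Of 11 genes that form or control the pyruvate dehydrogenase complex, 1 rose and 3 fell in Taf5l-KO, 3 rose and 6 fell in Taf6l-KO, and 2 rose and none fell in cMyc-KO. In Taf5l-KO none rose without WT-Taf replicate 1 and 2 rose without its replicate 3; in cMyc-KO 1 fell without cMyc-KO replicate 1. In Taf6l-KO 2 fell under scaling by library totals. The inhibitory kinase gene Pdk3, on the X chromosome, fell in both Taf knockouts (-0.37 ± 0.04 and -0.41 ± 0.04), and Pdk2 rose in cMyc-KO (11.5 to 11.97 CPM, against 5.94 to 7.24 in WT-Myc; 0.81 ± 0.10). Of 7 pentose phosphate genes none rose and 3 fell in each Taf knockout, and 1 rose and 4 fell in cMyc-KO. The 4 became 1 without cMyc-KO replicate 2 or WT-Myc replicate 3, and 2 without WT-Myc replicate 2; in Taf5l-KO 1 rose without Taf5l-KO replicate 3. G6pdx, the entry enzyme of that pathway and X-linked, fell in all 3 (-0.52 ± 0.04, -0.62 ± 0.04 and -0.23 ± 0.05), as did the transketolase gene Tkt (-0.15 ± 0.03, -0.26 ± 0.03 and -0.22 ± 0.05).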

How the data were processed

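RNA was depleted of ribosomal RNA and made into directional libraries, per the labels' protocols; according to the submitters' processing notes, tools were Salmon 0.8.2 and DESeq2 1.14.1 and the build was mm9, with no role given. The authors deposited a table of estimated counts for each gene, all whole numbers, a table of normalized counts (a signal on a count scale) and FPKM values; their TPM table was not used, since 3 of its header names match no sample, and its 15 columns are not assigned. Samples were grouped by title.

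The test of the counts was the quasi-likelihood test of edgeR 4.0.16 under R 4.3.3 (TMM; filterByExpr, minimum count 10; glmQLFit and glmQLFTest; Benjamini-Hochberg adjustment over all genes tested; threshold 0.05). The 9 libraries of the Taf experiment, the 6 of the Myc experiment and, for differences between experiments, all 15 were fitted, each in 1 model. CPM uses the scaled library totals of its own experiment. Standard errors were obtained as the absolute log2 fold change over the root of the F statistic. Total counts were 14935631 to 27650813, with a biological coefficient of variation of 4.23% (Taf) and 10.2% (Myc). No pair of replicates agreed within sampling noise (lowest chi-square per degree of freedom 2.68). Each library was counted as 1 sample, but this spread cannot show whether the libraries came from separate cultures.

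Levels between genes had been planned on the deposited FPKM. There, 37.4% of 11497 genes imply a length below their shortest annotated transcript, so CPM per kb of the longest GENCODE M21 transcript was used instead (lengths only, since the build differs). The alternatives comprised DESeq2 1.42.0, RLE scaling, scaling by totals, no filter, fits of other sample sets, a replicate block, leaving out each library, and limma 3.58.1 on log2(FPKM + 1), log2(FPKM + 0.1) and log2(normalized count + 1), with a mean FPKM of at least 0.5 for the FPKM fits. The procedure was tested on simulated data. The members and gene lists were chosen with earlier results of these data known. Genes past the threshold with an absolute log2 fold change of at least 0.5 in a knockout have every library's value; of each other list up to 3 genes per direction and knockout, by smallest p, could be named. Figures used Python 3.11.15 and matplotlib 3.10.9.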

Additional observations from a re-analysis of the deposited data

Results flagged for a closer look

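The effect in cMyc-KO minus the mean effect in the Taf knockouts passed the test of the difference itself (edgeR's quasi-likelihood test in all 15 libraries, Benjamini-Hochberg adjustment) for 17 genes, given here as log2 values. In the HIF machinery the differences were -1.69 for Egln3 and -0.41 for Egln1. Among HIF targets they were -2.33 for Ddit4, -1.90 for Stc2, -1.13 for P4ha1, -1.07 for Ndrg1, -0.95 for Ak4, -0.76 for Bnip3 and -0.65 for Vegfa. In glycolysis they were -0.70 for Pfkfb3, -0.68 for Pfkl, -0.56 for Ldha, -0.50 for Hk1, -0.47 for Tpi1 and -0.21 for Slc2a1, and 0.75 for Ldhb and 0.44 for Slc2a3. The smallest of these, Slc2a1, was lost without any 1 of 7 libraries (adjusted p 0.054 to 0.103). Each knockout was measured in its own experiment only, so experiment and knocked-out gene cannot be told apart in these differences beyond each experiment's own wild type.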

How the results depend on the processing

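For the comparisons with wild type, most values of the set's genes kept their direction and side of the threshold: 362 of 390 under other settings in Taf5l-KO, 335 of 390 in Taf6l-KO and 333 of 351 in cMyc-KO. These include genes never called: of the genes called, 5 of 17 lost the call under some setting in Taf5l-KO, 15 of 26 in Taf6l-KO and 6 of 22 in cMyc-KO. Pfkm in Taf5l-KO reversed, to -0.228 on log2(FPKM + 1) and -0.235 on log2(FPKM + 0.1) and on normalized counts. Beyond the set, Insig2 in Taf6l-KO reversed to -0.0754, -0.0756 and -0.0755 in those fits, Pdk4 in Taf6l-KO to 0.00554, 0.00489 and 0.00483, and Tfrc between the Taf knockouts to -0.0671 in each; Slc16a3 between the Taf knockouts ranged from -0.201 to 0.232 with single libraries left out. The cause was not tested for any change here. In both FPKM fits HIF targets called in Taf5l-KO were 2 higher and 1 lower, and 2 higher on normalized counts. In Taf6l-KO both FPKM fits gave 5 genes of the set higher, 3 HIF targets higher and 5 glycolysis genes lower, normalized counts gave 9 genes and 4 HIF targets higher, and library totals gave 5 glycolysis genes higher. In cMyc-KO the HIF targets higher were 0 in both FPKM fits. Replicate numbers did not pair the libraries (correlations of same-numbered deviations from -0.255 to -0.00117); with the replicate block, cMyc-KO had 1 gene of the set and 0 HIF targets higher. Between Taf6l-KO and Taf5l-KO, DESeq2, both FPKM fits and normalized counts gave 3 higher; lower were 3 with library totals, 5 with all 15 libraries in 1 fit, 2 in both FPKM fits and 3 on normalized counts.

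With single libraries left out, genes of the set called higher and lower ranged from 8 to 12 and 7 to 8 in Taf5l-KO, 10 to 14 and 10 to 13 in Taf6l-KO, 3 to 3 and 16 to 19 in cMyc-KO, 4 to 7 and 6 to 10 between the Taf knockouts, and 2 to 6 and 14 to 16 for the difference between experiments. HIF targets called higher ranged from 5 to 8 in Taf6l-KO. With 3 libraries a group, changes of low genes such as Ankrd37 and Adm are limited by depth.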
